A study of Mus musculus with 24 samples.

Results

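The comparison is of liver RNA from mice whose hepatocytes lacked JNK2, against liver RNA from control mice, on chow. Its 6 libraries, 3 per group, were taken by their titles from 24 in the series, and all 31027 loci of the deposited table were considered. The Jnk2 mice carried the AlbCre transgene with Jnk2flox/flox alleles (AlbCre+ Jnk2flox/flox), and the control mice carried AlbCre alone (AlbCre+). Both groups were C57BL/6J, carried the transgene and ate chow for 16 weeks. The 3 further pairs of the series, which share no library with these 6, were set beside them: Jnk2 against control after 16 weeks of high fat diet, and Jnk1Jnk2 livers (AlbCre+ Jnk1flox/floxJnk2flox/flox) against Jnk1 livers (AlbCre+ Jnk1flox/flox) on each diet. No label used here gives an age or sex, or ties a replicate to a mouse of its own. The p-values therefore rest on the variation among these libraries, part of which may be technical.

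JNK1 and JNK2 are the stress-activated protein kinases made from Mapk8 and Mapk9. They are switched on by the kinases MKK4 and MKK7 and phosphorylate c-Jun, JunD and other partners of the AP-1 transcription factor. In hepatocytes they are best known for responses to fatty acids, cytokines and insulin. AlbCre acts in hepatocytes, which express albumin, and liver cells in which it is not active keep their Jnk2 alleles. In whole liver, fewer cells of a type and less RNA per cell cannot be told apart.

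Levels are given as FPKM, a read density corrected for transcript length and library size. The sum of FPKM was 719675, 649876 and 689809 in the Jnk2 libraries and 639580, 676933 and 654345 in the control libraries. Relative depth was 0.503, 0.933 and 0.908 of the deepest library in Jnk2, and 1, 0.498 and 0.314 in control. Several libraries stood apart. Jnk2 replicate 1, and to a smaller extent replicate 3, held skeletal muscle RNA. Acta1, skeletal actin, was at 48.2, 0.219 and 5.47 FPKM in Jnk2 and 0.175, 0.527 and 0.371 in control. The neutrophil gene S100a8 was at 82.3, 10.5 and 11.2 FPKM in Jnk2 and 8.18, 12.6 and 12.8 in control. S100a9 (52.5 FPKM), Camp, Ngp, Ltf, Mpo and Elane of the neutrophil list were also highest in Jnk2 replicate 1. Retnlg (2.43 there, 2.78 in control replicate 3) and Cxcr2 (0.252 there, 0.305 in control replicate 2) were not. Exocrine pancreas RNA was present in Jnk2 replicate 2 and control replicate 3, where the chymotrypsinogen gene Ctrb1 was at 92.3 and 347 FPKM, against 0.103 or less in the other 4. Alb, the albumin gene, was listed at 0 in Jnk2 replicates 2 and 3 and in control replicate 1, as was Serpina1a; 6 loci had such failed estimates and none of them was called. Hepatocyte markers other than these were high in all 6 libraries, for example Apoa1 at 6910 to 7120 FPKM in Jnk2 and 7080 to 7470 in control.

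Mapk9 (chromosome 11, 49846751 to 49886421, mm10) was at 6.89, 6.59 and 5.6 FPKM in Jnk2 livers and at 9.83, 9.19 and 10.8 in control livers. All 3 Jnk2 libraries lay below all 3 controls, as the labels give them. The mean was 6.36 ± 0.674 FPKM in Jnk2 and 9.94 ± 0.805 in control (SD, n = 3 each). On the scale of log2(FPKM + 1), Mapk9 fell by 0.57 ± 0.08 (SE, limma adjusted p = 0.00402). The locus value includes reads from outside any deleted exon and from cells in which AlbCre is not active. Mapk9 remained called when each of the 6 libraries was left out, with adjusted p from 0.00527 to 0.0387, but not in a fit of these 6 libraries alone (adjusted p = 0.0997).

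The other JNK genes did not pass the test. Mapk8, the gene of JNK1 (chromosome 14, 33377899 to 33447158), was at 5.23, 5.18 and 5.2 FPKM in Jnk2 and 5.02, 5.77 and 4.76 in control, a difference of 0.01 ± 0.11 (adjusted p = 0.992). Its library values overlapped. Mapk10, the gene of the brain kinase JNK3, averaged 0.00119 FPKM over the 24 libraries and was not tested. Of 24 genes listed for JNK kinases and their regulators, 20 were tested, Mapk9 alone was called, and 17 differences were below 0. The median of the list was -0.16, against -0.04 over all loci tested, where 59.9% of differences were below 0. Map3k11, the mixed-lineage kinase MLK3 upstream of JNK, was at 8.28, 6.68 and 7.33 FPKM in Jnk2 and 10.4, 9.78 and 10.8 in control, with no overlap and a difference of -0.43 ± 0.12 (adjusted p = 0.115).

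**Figure D1:**
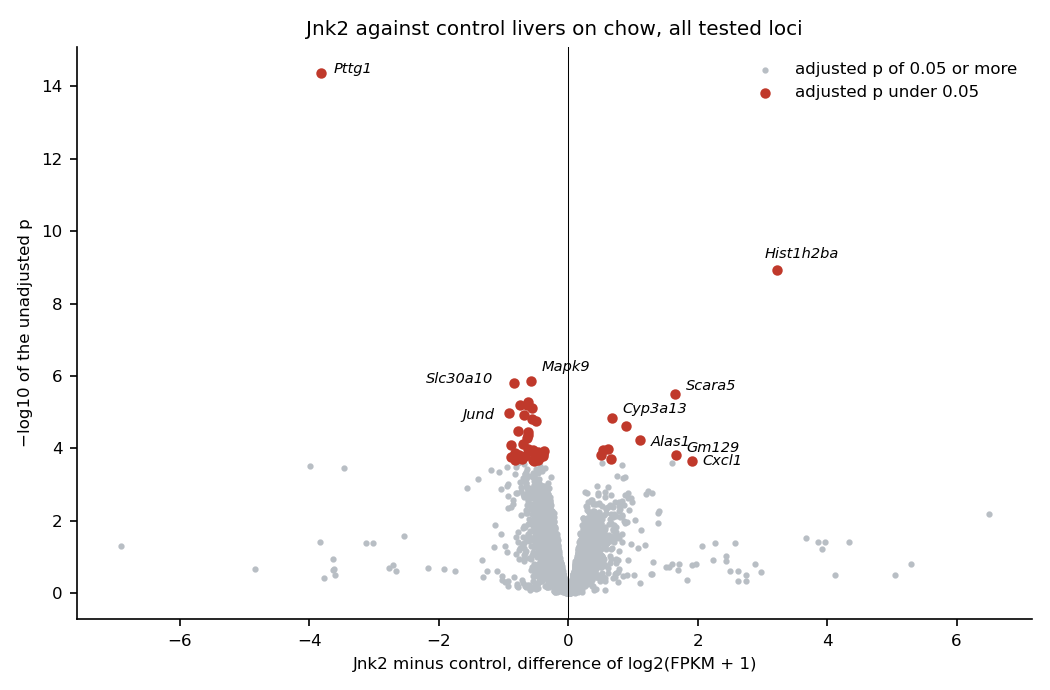
Difference of log2(FPKM + 1), Jnk2 minus control on chow (x), against −log10 of the unadjusted p (y) for each of the 10562 loci tested. Red points are the 48 loci called at an adjusted p under 0.05, 37 to the left and 11 to the right, with Pttg1 and Hist1h2ba far above the rest.

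A locus was tested where its mean over the 24 libraries was at least 1 FPKM, and called where the adjusted p (Benjamini-Hochberg) was below 0.05. Of 10562 loci tested, 48 (0.454%) were called: 11 higher (0.104%) and 37 lower (0.35%) in Jnk2 livers. An unadjusted p under 0.05 was seen at 1390 loci (13.2%). The 6 library values did not overlap between groups at any of the 48, a property of 24.2% of all loci tested (7.62% higher and 16.6% lower in Jnk2). The count depended on single libraries, and was 6, 15 and 16 without control replicates 1, 2 and 3, and 27, 15 and 6 without Jnk2 replicates 1, 2 and 3. Pttg1, Hist1h2ba, Mapk9 and Slc30a10 were called in all 6 of those fits, and 20 of the 48 loci in none of them. In a fit of the 6 chow libraries alone, 2 loci were called, Pttg1 and Scara5.

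**Figure D2:**
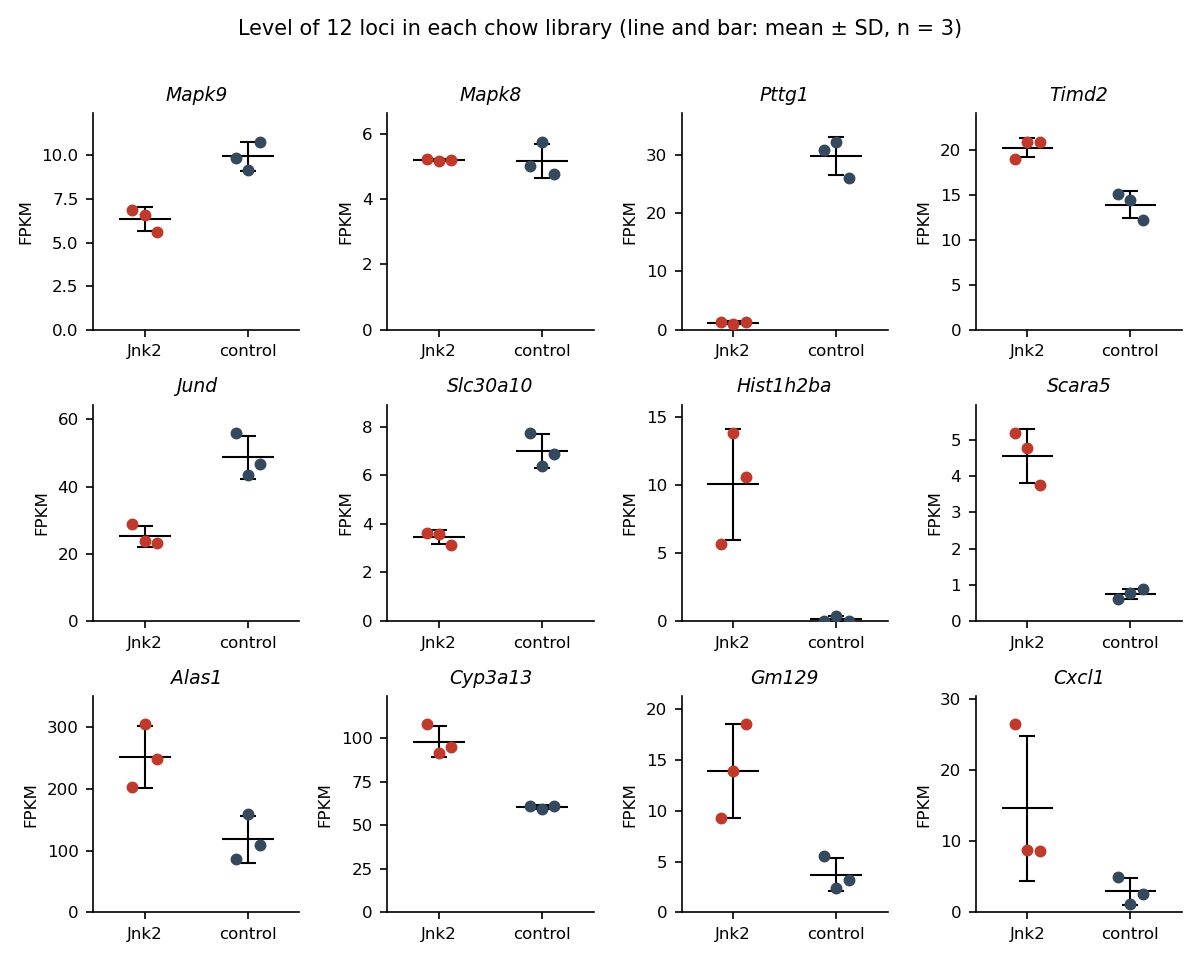
FPKM (y, from 0) of 12 loci in each chow library, with 3 Jnk2 livers at the left and 3 control livers at the right of each panel. Points are libraries, lines and bars the mean ± SD. The groups overlap only at Mapk8, and Cxcl1 has 1 Jnk2 library, replicate 1, far above the others.

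The largest fall was at a gene on the same chromosome as Mapk9. Pttg1 encodes securin, which restrains the protease separase until chromosomes part in mitosis. Pttg1 (chromosome 11, 43420248 to 43426248) was at 1.31, 0.93 and 1.32 FPKM in Jnk2 and 30.9, 32.3 and 26.1 in control. Every Jnk2 library was far below every control, and Pttg1 fell by 3.81 ± 0.18 (log2 scale, adjusted p = 4.51e-11). It was the only called gene of the cell cycle list, in which 9 of 24 genes were tested and the median difference was 0.01.

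Timd2, which encodes a receptor for H-ferritin in the mouse (chromosome 11, 46668960 to 46707104), moved the other way. It was at 19, 20.8 and 20.9 FPKM in Jnk2 and 15.1, 14.4 and 12.2 in control, with no overlap. It rose by 0.51 ± 0.11 (adjusted p = 0.0444), and the call was lost whichever of the 6 libraries was left out (adjusted p 0.0675 to 0.233). Pttg1 lies 6.42 Mb and Timd2 3.14 Mb from Mapk9, on the side of lower coordinates. Within 10 Mb of Mapk9, 110 loci were tested and these 2 were called (1.82%, against 0.454% of all loci), and within 5 Mb Timd2 was called of 60. The median difference of the 110 loci was -0.03, against -0.04 over all loci.

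**Figure D3:**
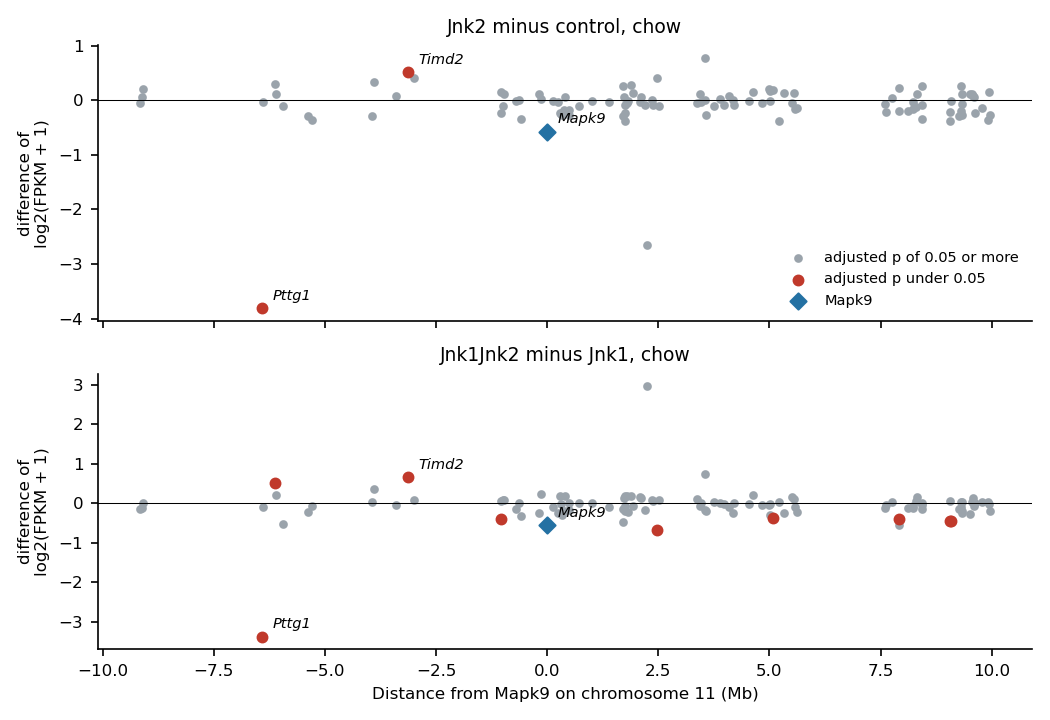
Difference of log2(FPKM + 1) of the loci within 10 Mb of Mapk9 (y) against their distance from it along chromosome 11 in Mb (x), for Jnk2 minus control (top) and Jnk1Jnk2 minus Jnk1 (bottom) on chow. Red points were called. Pttg1 and Timd2 stand at nearly the same height in both panels, at -3.81 and -3.38 and at 0.51 and 0.65. The grey point at -2.65 is a microRNA locus, Mir3061 (adjusted p = 0.658).

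Pttg1 and Timd2 were also called, in the same direction, in the 3 pairs that share no library with these. Pttg1 differed by -3.14 ± 0.18 in Jnk2 against control on high fat (adjusted p = 1.63e-09). Without JNK1 it differed by -3.38 ± 0.18 on chow (adjusted p = 4.24e-10) and -2.56 ± 0.18 on high fat (adjusted p = 1.34e-08). Timd2 differed by 0.38 on high fat, and without JNK1 by 0.65 on chow and 0.51 on high fat (adjusted p = 0.0303, 0.00367 and 0.000635). Pttg1 averaged 1.85 ± 0.339 FPKM in chow Jnk1Jnk2 livers and 28.9 ± 5.92 in chow Jnk1 livers. In each pair, only the Jnk2 or Jnk1Jnk2 livers carried Jnk2flox alleles. Loss of JNK2 and sequence linked to those alleles therefore cannot be told apart here.

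Hist1h2ba, an H2B histone gene known for expression in the testis, had the largest rise. It was at 5.67, 13.8 and 10.6 FPKM in Jnk2 livers and listed at 0, 0.387 and 0 in control livers. The rise was 3.23 ± 0.30 on the log2(FPKM + 1) scale (adjusted p = 6.44e-06), and its size depends on the pseudocount. Histone H2B genes are close copies, so how the authors' software shared reads among them bears on this value. The difference was 4.00 ± 0.30 in Jnk2 against control on high fat (adjusted p = 1.5e-07). Without JNK1 it was 0.84 on chow (adjusted p = 0.118) and 1.07 on high fat (adjusted p = 0.00509). In Jnk1 against control on chow, which uses the same controls, it was 3.06 (adjusted p = 1.04e-05).

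Falls were the larger part of the calls, and the gene with the greatest fall after Pttg1 was a JNK target. Jund encodes JunD, a subunit of AP-1 that JNK phosphorylates. It was at 28.8, 23.8 and 23.1 FPKM in Jnk2 and 56, 43.5 and 46.6 in control. The lowest control was well above the highest Jnk2 library. It fell by 0.92 ± 0.16 (adjusted p = 0.0109). The call was lost without control replicate 1 (adjusted p = 0.0799), Jnk2 replicate 2 (0.0655) or Jnk2 replicate 3 (0.0825).

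Of the 20 AP-1 and immediate early genes, 17 were tested, Jund was the only call, and 12 were below 0 (median -0.09). Fosl2, which encodes the AP-1 subunit Fra-2, was at 1.39, 1.46 and 1.45 FPKM in Jnk2 and 2.41, 2.36 and 2.07 in control, a difference of -0.43 ± 0.12 (adjusted p = 0.11). At the immediate early genes Nr4a1, of a nuclear receptor, and Fos, of an AP-1 subunit, control replicate 1 stood far above the others. Nr4a1 was at 0.44, 0.695 and 1.06 FPKM in Jnk2 and 9.75, 1.59 and 0.906 in control, and its difference of -1.13 ± 0.41 had adjusted p = 0.231. Fos was at 0.717, 0.591 and 1.09 FPKM in Jnk2 and 18.2, 0.954 and 0.665 in control, a difference of -1.15 ± 0.56 (adjusted p = 0.389, and 0.997 without control replicate 1).

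Slc30a10 encodes the manganese exporter of the canalicular side of hepatocytes. It was at 3.64, 3.59 and 3.12 FPKM in Jnk2 and 7.74, 6.36 and 6.87 in control. No library overlapped, and it fell by 0.84 ± 0.12 (adjusted p = 0.00402), with adjusted p of at most 0.043 with any 1 library left out. It also fell by 0.88 ± 0.12 on high fat (adjusted p = 0.000155). Without JNK1 it was 1.12 higher on chow in Jnk1Jnk2 than in Jnk1 livers (adjusted p = 3.93e-05) and fell by 0.72 on high fat (adjusted p = 8.3e-05). The chow pair with JNK1 and the chow pair without it differed by 1.96 ± 0.18 (adjusted p = 6.87e-06). In Jnk1 against control on chow the difference was -1.57 (adjusted p = 8.37e-07).

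The remaining 12 of the 15 greatest falls were between 0.64 and 0.88 on the log2 scale. Tymp, thymidine phosphorylase, was at 42.2, 32.5 and 31.9 FPKM in Jnk2 and 72.9, 58.6 and 65.7 in control, and fell by 0.87 ± 0.18 (adjusted p = 0.0395). Hdac5, a class IIa histone deacetylase, was at 8.08, 6.56 and 6.53 FPKM in Jnk2 and 12.8, 13.8 and 11.7 in control, and fell by 0.78 ± 0.14 (adjusted p = 0.0213). Stk40, a serine/threonine kinase-like gene, was at 8.65, 7.47 and 6.89 FPKM in Jnk2 and 12.8, 14 and 13.6 in control. It fell by 0.75 ± 0.12 (adjusted p = 0.00862). Control libraries stood above Jnk2 libraries at each of these genes, by a wider margin than the range within either group.

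The others of the 15 were Col5a3, a collagen V chain (-0.82), Tor3a, a torsin ATPase (-0.82), Sertad1, a regulator of cyclin-dependent kinase 4 and E2F (-0.76), and Pnrc1, a nuclear receptor coactivator (-0.72). They also included Lzts2, a leucine zipper protein (-0.70), Btg1, an antiproliferative gene (-0.67), Gfod2 (-0.66), the Ras-association gene Rassf1 (-0.64) and the locus of 2 unannotated transcripts, AK138287/AK087483 (-0.88). With single libraries left out, adjusted p reached 0.0686 at Stk40 and 0.0874 at Btg1, both without Jnk2 replicate 3, and 0.135 to 0.26 at Hdac5, Tymp, Lzts2, Gfod2, Rassf1, Tor3a, Col5a3, Sertad1, Pnrc1 and AK138287/AK087483. Further calls, named after their values were seen, were the ubiquitin ligase gene Siah2 (-0.56, adjusted p = 0.00907) and Srf, the serum response factor gene (-0.56, adjusted p = 0.0124). Another was Slc25a42, the mitochondrial coenzyme A carrier (-0.63, adjusted p = 0.00862).

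GC content moved with the falls. Transcripts called lower had a median GC content of 55.6% (36 of 37 loci matched), those called higher 49.7%, and all loci tested 49.7%. Across 10167 loci the difference had a Spearman correlation with GC content of -0.25, a description over genes of the same libraries. The tenth of loci with the highest GC content had a median difference of -0.17, and the tenth with the lowest 0.00. The deviation of a library from the mean of all libraries correlated with GC content at 0.003, -0.346 and -0.336 in the Jnk2 libraries and 0.017, -0.029 and 0.032 in the controls, so Jnk2 replicates 2 and 3 stood apart. With each library's GC trend removed, an alternative chosen after seeing the data, 19 loci were called, 7 higher and 12 lower. All 19 were among the 48. The falls then called included Slc30a10, Mapk9, Pttg1, Btg1, Hdac5, Stk40, Slc25a42, Rassf1 and, named after their values were seen, Icam2, Ept1 and Ric8b. Jund then differed by -0.58 (adjusted p = 0.188), Tymp by -0.69 (adjusted p = 0.0953) and Srf by -0.29 (adjusted p = 0.161).

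Scara5, Alas1 and Cyp3a13 were among the 11 rises. Scara5 encodes a scavenger receptor that takes up ferritin. It was at 5.19, 4.76 and 3.74 FPKM in Jnk2 and 0.613, 0.765 and 0.893 in control. The groups were far apart, and Scara5 rose by 1.66 ± 0.26 (adjusted p = 0.00668), with adjusted p = 0.05 without control replicate 1. On high fat it was 1.03 lower in Jnk2 than in control (adjusted p = 0.0129), and the effects on the 2 diets differed by -2.68 ± 0.36 (adjusted p = 0.000358). Without JNK1 its difference on chow was 0.00 (adjusted p = 1).

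Alas1 encodes the rate-limiting enzyme of heme synthesis in liver. It was at 204, 305 and 248 FPKM in Jnk2 and 86.4, 160 and 109 in control. The lowest Jnk2 library was above the highest control, and Alas1 rose by 1.11 ± 0.22 (adjusted p = 0.031). The call was lost without control replicate 1 (adjusted p = 0.156), control replicate 3 (0.112), Jnk2 replicate 2 (0.125) or Jnk2 replicate 3 (0.135). Without JNK1, Alas1 was 0.95 lower in Jnk1Jnk2 than in Jnk1 livers on chow (adjusted p = 0.0214), a difference between the pairs of -2.07 ± 0.31 (adjusted p = 0.00221). Of 20 iron, metal and heme genes tested, 1 rose, Alas1, and 1 fell, Slc30a10, against 0.104% called higher and 0.35% lower of all loci.

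Cyp3a13, a cytochrome P450 of the CYP3A family, was at 108, 91.3 and 94.8 FPKM in Jnk2 and 61.3, 59.2 and 61 in control. The controls lay close together, below all Jnk2 libraries. Cyp3a13 rose by 0.68 ± 0.12 (adjusted p = 0.0124), and was called in 1 of the 6 fits with a library left out (adjusted p 0.0286 to 0.071). Cyp3a13 and Alas1 were the 2 rises among 20 tested genes of the CAR and PXR list, the receptors of drug response, with no fall and a median of 0.05. Of all loci tested, 0.104% were called higher and 0.35% lower. Alas1 is also the rise of the iron, metal and heme list. On high fat Cyp3a13 was 0.50 lower in Jnk2 (adjusted p = 0.00948), and the diets differed by -1.18 ± 0.17 (adjusted p = 0.000505).

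The promoters of Cyp3a13 and of Gm129, described next, are shown because each holds a motif of interest here, the AP-1 site TGANTCA in Cyp3a13 and the clock E-box CACGTG in Gm129. They are the 250 bases before the RefSeq start on GRCm38.p6, 5′ to 3′ on the minus strand of each, with the motif in capitals.
Cyp3a13 (chr5:137921620-137921869): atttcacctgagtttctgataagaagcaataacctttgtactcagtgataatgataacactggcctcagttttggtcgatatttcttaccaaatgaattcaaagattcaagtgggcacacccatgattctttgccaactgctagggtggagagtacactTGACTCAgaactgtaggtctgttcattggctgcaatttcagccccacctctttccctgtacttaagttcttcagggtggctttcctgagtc
Gm129 (Ciart, chr3:95882229-95882478): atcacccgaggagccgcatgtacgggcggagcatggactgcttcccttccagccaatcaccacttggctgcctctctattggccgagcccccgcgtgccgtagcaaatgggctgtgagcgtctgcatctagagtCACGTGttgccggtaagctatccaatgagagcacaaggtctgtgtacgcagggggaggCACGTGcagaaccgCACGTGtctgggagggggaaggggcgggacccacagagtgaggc
The AP-1 site of Cyp3a13 starts 91 bases before the gene's start, and the E-boxes of Gm129 start 116, 58 and 44 bases before. Motifs were searched on both strands. TGANTCA was present before 5.65% of 8018 tested genes with a RefSeq match, before 2 of 30 genes called lower and before 1 of 7 called higher. CACGTG was present before 10.4% of the 8018, and 12 of them (0.15%) had at least 3. It was before 0 of the 30 called lower and 1 of the 7 called higher, Gm129. The cyclic AMP motif TGACGTCA was present before 2.99% and the D-box TTATGTAA before 0.599%, and before 1 and 0 of the 30. These matches describe the sequence and say nothing of binding.

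Gm129, also called Ciart, encodes a repressor within the circadian clock. It was at 9.29, 13.9 and 18.5 FPKM in Jnk2 and 5.55, 2.39 and 3.21 in control. The lowest Jnk2 value was above the highest control, and Gm129 rose by 1.67 ± 0.35 (adjusted p = 0.0444). With libraries left out it was called only without Jnk2 replicate 1 (adjusted p = 0.0436), and reached 0.26 without Jnk2 replicate 3. Of 21 tested genes of the clock and its output, Gm129 was the only call. The list had 8 genes higher and 2 lower at an unadjusted p under 0.05, and a median difference of 0.27. Such a p was seen at 13.2% of all loci tested, whose median difference was -0.04.

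Of the 21 differences, 14 were above 0 and 7 below, and those other than Gm129 did not pass the test. Arntl, the activator gene of the clock also called Bmal1, was at 2.16, 0.924 and 0.824 FPKM in Jnk2 and 4.79, 3.28 and 4.35 in control, a difference of -1.19 ± 0.28 (adjusted p = 0.0659). Dbp, a PAR bZIP transcription factor gene driven by the clock, was at 23.5, 26.6 and 20.5 FPKM in Jnk2 and 12.3, 7.82 and 8.59 in control (1.23 ± 0.33, adjusted p = 0.111). Usp2, a deubiquitinase gene of clock output, was at 8.66, 14.7 and 18 in Jnk2 and 4.64, 5.25 and 4.49 in control (1.30 ± 0.36, adjusted p = 0.113). None of these 3 overlapped between the groups. The first component of the 21 genes over the 24 libraries, taken as a clock score, was -1.65, 0.95 and 1.46 in Jnk2 and -3.44, -3.28 and -5.21 in control. With that score as a covariate 4 loci were called, Pttg1, Hist1h2ba, Scara5 and Sertad1, and Mapk9 had adjusted p = 0.098. The labels used here give no time of day for the livers, so time and genotype cannot be told apart.

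**Figure D4:**
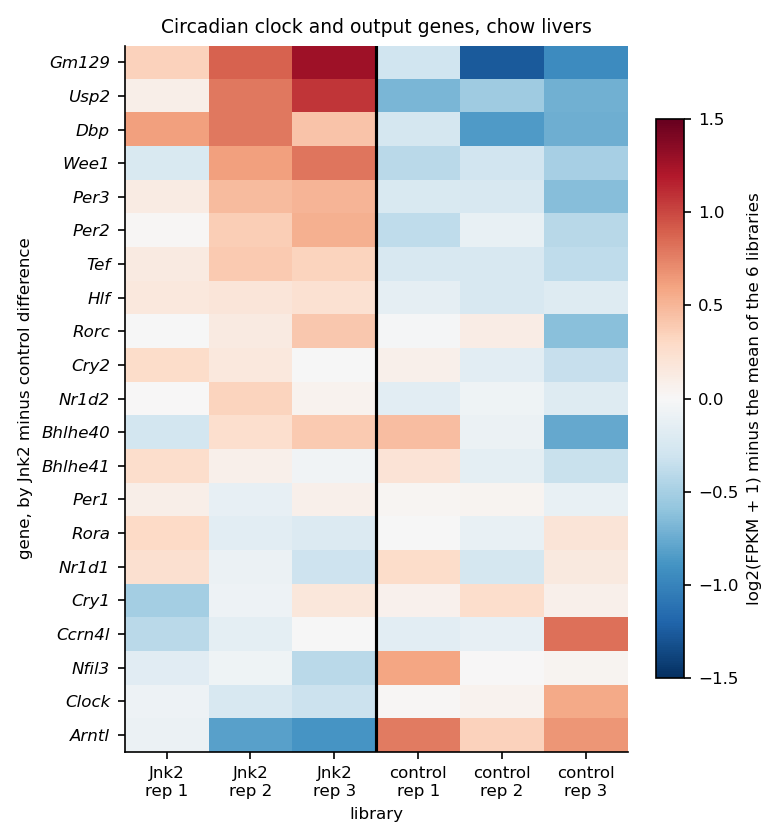
Log2(FPKM + 1) minus the mean of the 6 chow libraries (colour) for the 21 tested genes of the circadian list (rows, by their difference) in 3 Jnk2 and 3 control libraries (columns). Gm129, Usp2 and Dbp are above the mean in each Jnk2 library, and Arntl is above it in each control.

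Jnk1 against control on chow shares the 3 controls with Jnk2 against control, and called 232 loci (2.2%, with 0.985% higher and 1.21% lower), among them 8 higher and 2 lower of the 21 clock genes. There Gm129 differed by 2.28 (adjusted p = 0.00171), Dbp by 1.96 (adjusted p = 0.00359), Usp2 by 2.18 (adjusted p = 0.00303) and Arntl by -1.44 (adjusted p = 0.00828). Adding JNK2 loss to JNK1 loss on chow gave differences of the opposite sign: -1.60 at Gm129 (adjusted p = 0.0176), -1.41 at Dbp (adjusted p = 0.0251) and -1.69 at Usp2 (adjusted p = 0.0144). On high fat, Jnk2 against control gave -0.06 at Gm129 (adjusted p = 0.942) and 0.44 at Dbp (adjusted p = 0.42).

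Cxcl1, the neutrophil-attracting chemokine, was at 26.4, 8.78 and 8.67 FPKM in Jnk2 and 5.03, 1.25 and 2.59 in control. All 3 Jnk2 libraries were above all controls, with replicate 1 the highest. Cxcl1 rose by 1.91 ± 0.42 (adjusted p = 0.0498). Without Jnk2 replicate 1 the difference was 1.41 (adjusted p = 0.149), and the call was also lost without each other library (adjusted p 0.071 to 0.221). The summed level of the neutrophil list ran from 21.5 to 148 FPKM in Jnk2 and 18.3 to 29.6 in control. S100a8 and S100a9, at 82.3 and 52.5 FPKM in Jnk2 replicate 1, made up most of the highest sum. Of the list's 10 genes, 4 were tested, all 4 were above 0 and none was called. For skeletal muscle the sums were 5.9 to 199 in Jnk2 and 3.95 to 5.83 in control, with 8 of 11 genes tested, all 8 above 0 and none called. Both sums were highest in Jnk2 replicate 1, and their part in the Cxcl1 result was not tested.

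None of the 24 acute phase genes tested was called. Their median difference was 0.26, with 18 above 0 and 6 below, and 6 had an unadjusted p under 0.05, all of them above 0. Such a p was seen at 13.2% of all loci tested. Serpina3n, an acute phase serine protease inhibitor, was at 431, 249 and 228 FPKM in Jnk2 and 186, 157 and 148 in control, a difference of 0.83 ± 0.19 (adjusted p = 0.0557). It was 0.55 without Jnk2 replicate 1 (adjusted p = 0.144). Steap4, a metalloreductase gene, was at 34.1, 24.7 and 21.7 FPKM in Jnk2 and 12.8, 12.8 and 14.9 in control (0.92 ± 0.25, adjusted p = 0.112). On high fat the median of the list was -0.82 in Jnk2 against control, and the difference between diets was -1.33 ± 0.27 at Serpina3n (adjusted p = 0.00653) and -1.97 ± 0.36 at Steap4 (adjusted p = 0.00366).

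The other 4 rises were each under 1 on the log2 scale. Mtss1, which encodes a protein that links membranes to actin, was at 32.4, 39.8 and 39.3 FPKM in Jnk2 and 16.8, 19.2 and 23.1 in control, and rose by 0.89 ± 0.16 (adjusted p = 0.0169, up to 0.117 without control replicate 1). The joint locus of Rnase4 and Ang, 2 secreted ribonucleases, rose by 0.66 ± 0.14 (adjusted p = 0.0493). Plekha7, an adherens junction gene, rose by 0.62 ± 0.13 (adjusted p = 0.0444), and Gne, the first enzyme of sialic acid synthesis, by 0.55 ± 0.11 (adjusted p = 0.0444). Without control replicate 1 these 3 had adjusted p = 0.189, 0.17 and 0.167. Jnk2 and control libraries did not overlap at any of them.

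The genes usually named with liver JNK were not called. Fgf21, the fasting hormone gene, was at 6.57, 5.05 and 7.37 FPKM in Jnk2 and 8.84, 8.21 and 11.5 in control. All 3 Jnk2 libraries were below the controls, and the difference was -0.52 ± 0.44 (adjusted p = 0.661). Ppara, which encodes the fatty acid receptor PPARα, was at 37.6, 41.5 and 44 in Jnk2 and 36.9, 34.3 and 38.5 in control, overlapping (0.16 ± 0.11, adjusted p = 0.563). Of 46 tested PPARα targets and fatty acid oxidation genes none was called, 31 were below 0 and the median was -0.06. On high fat the same list had a median of 0.65 in Jnk2 against control.

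Other metabolic lists also held no call. In de novo lipogenesis, 21 genes were tested (median -0.03). Elovl3, a fatty acid elongase, was at 61.8, 54.4 and 60.1 FPKM in Jnk2 and 116, 95.1 and 104 in control, without overlap (-0.82 ± 0.20, adjusted p = 0.0719). Agpat2, of triglyceride synthesis, was at 194, 174 and 178 FPKM in Jnk2 and 234, 258 and 246 in control (-0.43 ± 0.10, adjusted p = 0.0584). In cholesterol synthesis and uptake, 16 of 22 tested genes were above 0 (median 0.27) and none had an unadjusted p under 0.05. In bile acid genes, Cyp7a1, whose enzyme opens the classic bile acid pathway, was at 37.2, 29.5 and 43 FPKM in Jnk2 and 15.9, 17.7 and 27.8 in control, and its difference of 0.83 ± 0.34 had adjusted p = 0.295.

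In NRF2 targets and glutathione transferases, 19 of 22 tested genes were below 0 (median -0.23), 4 of them at an unadjusted p under 0.05. Such a p was seen at 13.2% of all loci tested. Gsta2, a glutathione transferase, was at 5.1, 5.87 and 5.74 FPKM in Jnk2 and 10.2, 8.8 and 10.8 in control (-0.73 ± 0.24, adjusted p = 0.188). In ATF4 and CHOP targets, 9 of 12 were below 0 (median -0.11), with Ddit3, the CHOP gene, at 3.28, 3.72 and 4.19 FPKM in Jnk2 and 6.47, 5.59 and 9.85 in control (-0.78 ± 0.22, adjusted p = 0.113). Atf4, the activator gene itself, differed by -0.36 ± 0.13 (adjusted p = 0.204). Over the 24 pathway lists, 7 of 507 loci were called (1.38%, against 0.454% of all loci), in 6 lists. These were Mapk9, Jund, Pttg1, Slc30a10, Alas1, Cyp3a13 and Gm129. Mapk9 is the targeted gene, and the lists were chosen with earlier results of these data known, so these shares are a description.

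All 12 lists of cell types, a list of sex-linked genes among them, held 0 called loci of 96 tested. Ddx3y, a gene of the Y chromosome, was at 14.7, 17.3 and 15.6 FPKM in Jnk2 and 16, 16.8 and 15.7 in control. Xist, expressed in female cells, was at 0.0421 FPKM or less in all 6 libraries. Medians were -0.07 for macrophages and Kupffer cells (18 tested), -0.03 for endothelial cells (15 tested) and -0.11 for stellate cells and collagens (12 tested). They were -0.37 for adipocytes (4 tested, all below 0) and -0.28 for cholangiocytes (4 tested, 3 below 0). Lymphocytes and MHC class II had a median of 0.15 (4 tested, all above 0). The medians were 0.56 for neutrophils, 1.95 for skeletal muscle and -0.57 for exocrine pancreas. Exocrine pancreas summed to 7.56 to 247 FPKM in Jnk2 and 6.65 to 948 in control, with 8 of 10 genes tested, all 8 below 0, and Prss1 and Amy2a5 listed at 0 throughout. The part of these cells in the calls was not tested, apart from the fits without single libraries above.

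**Figure D5:**
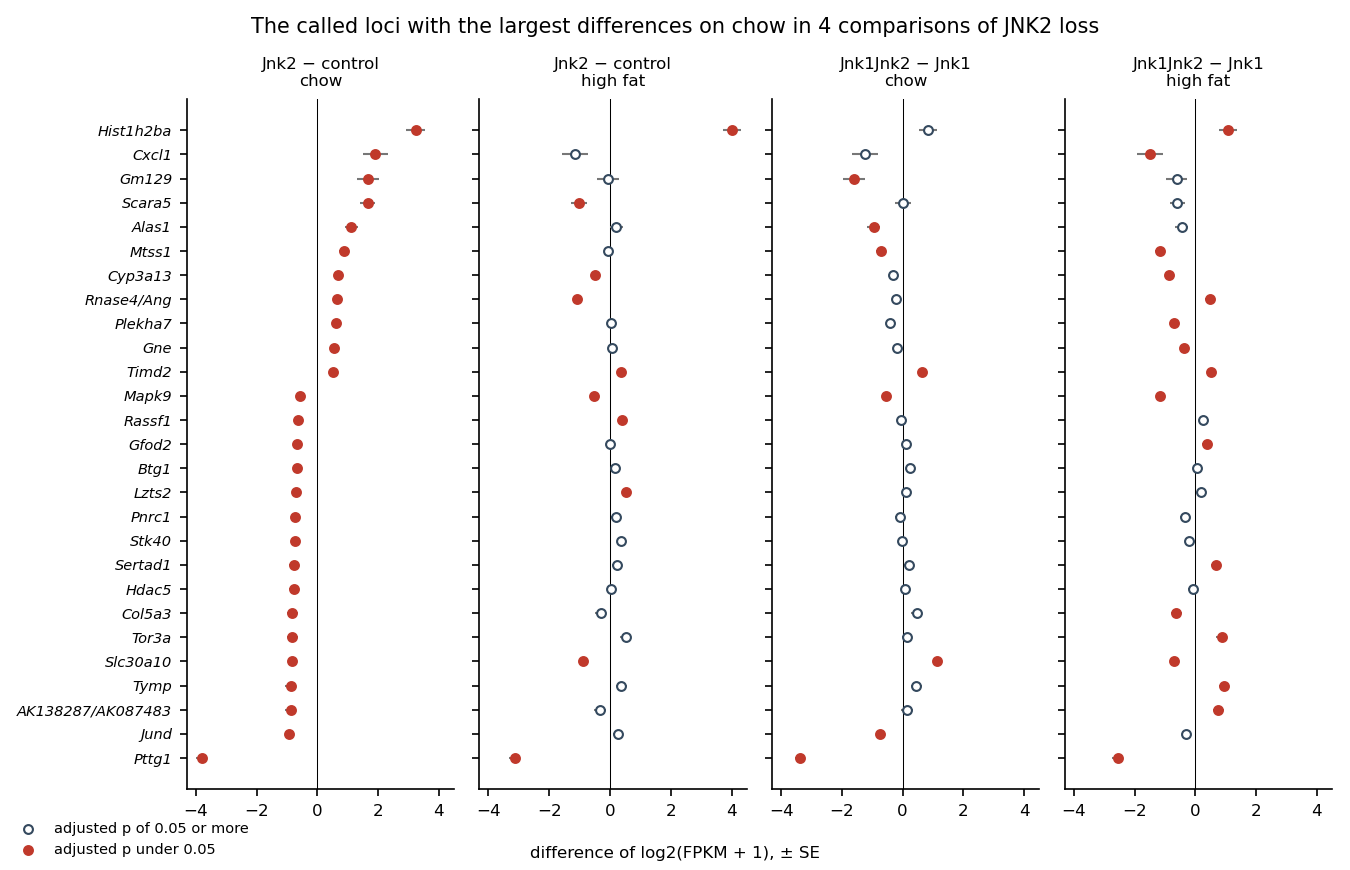
Difference of log2(FPKM + 1) ± SE (x) of the 11 rises, the 15 greatest falls and Mapk9 (rows) in Jnk2 minus control and in Jnk1Jnk2 minus Jnk1, on each diet (columns). Filled red points were called. Pttg1, Mapk9 and Timd2 keep their side in all 4 columns, whereas in Jnk2 minus control Scara5 and Cyp3a13 lie to the right of 0 on chow (1.66 and 0.68) and to the left on high fat (-1.03 and -0.50).

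Most of the 48 loci were not called in the same direction in the pairs that share no library with these. In Jnk2 against control on high fat, 1311 loci were called (12.4% of those tested, 7.45% higher and 4.96% lower). Of the 48, 5 were called there in the same direction and 7 in the opposite one, and 17 had the same sign. Adding JNK2 loss to JNK1 loss on chow called 372 loci (3.52%, with 0.596% higher and 2.93% lower), among them 6 of the 48 in the same direction and 6 in the opposite one, and 23 had the same sign. With size factors that split was 137 loci higher and 182 lower. On high fat the same contrast called 5983 loci (56.6%, with 22.9% higher and 33.8% lower), 11 of the 48 in the same direction and 14 in the opposite one, and 25 had the same sign. With size factors it called 3104 loci higher and 3062 lower. Mapk9, Pttg1 and Timd2 were called in the same direction in all 3 pairs, Slc30a10 and Hist1h2ba in 2, a further 9 in 1, Jund among them, and 34 in none. Mapk9 itself differed by -0.54 on high fat, -0.56 on chow without JNK1 and -1.16 on high fat without JNK1 (adjusted p = 0.000369, 0.00161 and 2.57e-08).

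Jund differed by -0.73 ± 0.16 in Jnk1Jnk2 against Jnk1 on chow (adjusted p = 0.0148) and by 0.25 in Jnk2 against control on high fat (adjusted p = 0.307). The differences between Jnk1Jnk2 and Jnk1 on chow correlated with GC content at -0.32 across loci (Spearman), against -0.25 for Jnk2 and control on chow. In the latter, Jund was not called with the GC trend removed (adjusted p = 0.188). The part of GC content in Jund's difference without JNK1 was not tested. Across all loci, the difference of Jnk2 against control on chow correlated with the other 3 pairs at -0.09, -0.01 and -0.04 (Pearson). By Spearman these were -0.19 on high fat, 0.03 on chow without JNK1 and -0.11 on high fat without JNK1. Both are over genes that share libraries. In the same order, the other 3 pairs correlated with GC content at 0.36, -0.32 and 0.18 (Spearman), and its part here was not tested. The difference between the diets was called at 1005 of all loci (9.52%, of which 6.18% positive and 3.33% negative) and at 35 of the 48. With size factors 556 were positive and 511 negative. The difference between JNK2 loss with JNK1 absent and with JNK1 present, on chow, was called at 162 of all loci (1.53%, of which 0.701% positive and 0.833% negative) and at 23 of the 48. With quantile normalization 138 were positive and 95 negative. The 48 were chosen on the chow values that enter both differences, so these counts are a description.

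Jnk2 livers were also set directly against Jnk1 livers on chow, where 25 loci were called (0.237%), 10 higher (0.0947%) and 15 lower (0.142%) in Jnk2, against 20 higher and 16 lower with size factors. The targeted genes went with the labels: Mapk8 was at 5.23, 5.18 and 5.2 FPKM in Jnk2 and 1.94, 1.88 and 1.98 in Jnk1, a difference of 1.08 ± 0.11 (adjusted p = 2.41e-05). Mapk9 was 0.57 ± 0.08 lower in Jnk2 (adjusted p = 0.00293). Across all loci tested, 60.8% of these Jnk2 minus Jnk1 differences were below 0. The 48 loci called against control were chosen on the same 3 Jnk2 libraries, so their agreement in direction here is partly built in. Of the 48 loci, 35 differed from Jnk1 in the direction in which they differed from control. Mapk9, Pttg1, Timd2 and Siah2 were the 4 of them called. Across loci, the Jnk2 minus Jnk1 difference had a Spearman correlation with GC content of -0.36. With the GC trend removed, Siah2 (adjusted p = 0.0759) and Timd2 (0.0998) were not called in Jnk2 against control. The call of Siah2 against control was also lost without control replicate 1 (adjusted p = 0.0781) or Jnk2 replicate 3 (0.0686). Slc30a10 was 0.72 ± 0.12 higher in Jnk2 than in Jnk1 (adjusted p = 0.00809), being lower than control in both. Against the same 3 controls, Jnk1 livers differed by 1.52 at Alas1 (adjusted p = 0.000795), 1.09 at Mtss1 (0.00107), 0.49 at Cyp3a13 (0.0324) and 0.92 at Scara5 (0.0677). They differed by -0.95 at Tymp (adjusted p = 0.00769), -0.69 at Btg1 (0.0035) and -0.36 at Jund (0.292). Of the 48 loci, 46 had the same sign in Jnk1 against control on chow, and 21 were called there in that direction. Over all loci tested, 2.2% were called there. Jnk2 and Jnk1 against control share the 3 control libraries, on which the 48 calls rest in part, so these counts are a description. Elovl3 was 1.31 ± 0.20 higher in Jnk2 than in Jnk1 (adjusted p = 0.00293).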

How the data were processed

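Liver RNA of 24 libraries in 8 groups was compared, with samples grouped by title. The deposited FPKM values were made by the authors per locus with TopHat, Cufflinks and Cuffdiff on mm10, per the submitters' processing notes, which name no versions here. FPKM are not counts and the absolute depth is unknown, so no counting interval is given. Relative depth was read from the steps between low values. An exact 0 can be a failed estimate. The counting's use of strand is not stated.

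Values were tested with limma-trend (limma 3.58.1 under R 4.3.3), 1 model of all libraries on log2(FPKM + 1) (16 residual degrees of freedom), for the 10562 of 19796 loci above 0 whose mean was at least 1 FPKM, with Benjamini-Hochberg adjustment per comparison. Of these, 248 carry several gene names. The pseudocount understates changes of low genes. An exact test of 3 against 3 libraries cannot go below p = 0.1, so none was used. The procedure was tested on simulated data.

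Named genes are Mapk8, Mapk9, Mapk10, Fgf21, Ppara, the called loci with the 15 largest rises and 15 largest falls, and the 4 smallest p-values of each list, and not all are reported here. Members and lists were chosen with earlier results of these data known. GC content and length came from GENCODE vM21 (96.3% of loci matched by name), and promoters from RefSeq. Figures used Python 3.11.15 and matplotlib 3.10.9.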

Additional observations from a re-analysis of the deposited data

Results flagged for a closer look

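The effect of JNK2 loss differed between the diets at 29 of the 49 genes printed with a test, by limma's test of the difference itself (high fat minus chow, on the log2 scale, adjusted p 0.000137 to 0.0443). Most of these genes were printed for their chow values, which enter the difference. The count, and the sign opposite to the chow effect, follow in part from that choice. Lower on high fat than on chow were the differences of -3.07 at Cxcl1, -2.68 at Scara5, -1.97 at Steap4, -1.85 at Cyp7a1 and -1.75 at Rnase4. Further negative ones were -1.72 at Gm129, -1.33 at Serpina3n, -1.18 at Cyp3a13, -0.94 at Mtss1 and -0.60 at Plekha7. The effect of JNK2 loss was more positive on high fat by 1.44 at Gsta2, 1.34 at Tor3a, 1.25 at Tymp, 1.22 at Lzts2 and 1.17 at Jund. It was also more positive by 1.10 at Stk40, 1.04 at Rassf1, 0.99 at Slc25a42, 0.98 at Sertad1 and 0.92 at Pnrc1. Smaller positive differences were 0.85 at Btg1, 0.81 at Hdac5, 0.67 at Gfod2, 0.62 at Fosl2 and 0.61 at Agpat2. Others on the positive side were 0.61 at Brd2, 0.58 at Map3k11, 0.56 at Siah2 and 0.55 at Srf. The share over all loci was 9.52%. GC content also went with this difference: across loci its Spearman correlation with GC content was 0.40, and the part of GC content in single genes was not tested.

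The effect of JNK2 loss on chow differed between livers without and with JNK1 at 24 of the same genes (absent minus present, adjusted p 6.87e-06 to 0.0434), against 1.53% of all loci. The chow values for which most of these genes were printed enter this difference, so its count and signs follow in part from that choice. Negative differences were -3.27 at Gm129, -3.15 at Cxcl1, -2.99 at Usp2, -2.64 at Dbp and -2.39 at Hist1h2ba. Then came -2.07 at Alas1, -1.65 at Scara5, -1.59 at Mtss1, -1.02 at Plekha7 and -0.99 at Cyp3a13. The least negative were -0.88 at Rnase4 and -0.72 at Gne. Positive differences were 2.75 at Elovl3, 1.96 at Slc30a10, 1.91 at Arntl, 1.32 at Tymp and 1.29 at Col5a3. Next came 0.95 at Sertad1, 0.93 at Btg1, 0.86 at Hdac5, 0.81 at Lzts2 and 0.72 at Stk40. The smallest were 0.65 at Slc25a42 and 0.60 at Agpat2. Clock genes were among these, and clock scores were 2.3, 4.39 and 4.42 in chow Jnk1 and -3.44, -3.28 and -5.21 in chow control livers. They were -5.46, -2.99 and -0.88 in chow Jnk1Jnk2 and -1.65, 0.95 and 1.46 in chow Jnk2 livers. The part of the clock in this difference was not tested.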

How the results depend on the processing

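Jnk2 against control on chow gave 48 calls, and 6 to 27 with 1 library left out, not all of them among the 48. The count was 31 with a pseudocount of 0.1, 25 with no filter on level, 25 with size factors (8 higher, 17 lower), 466 with array weights (90 higher, 376 lower) and 2 with the 6 chow libraries alone. It was 4 with the clock score as covariate, 19 with the GC trend removed, 17 with that and the replicate block, and 26 without the 3 high fat Jnk1Jnk2 libraries, these last 4 chosen after seeing the data. With quantile normalization it was 35, of which 11 were higher. Mapk9 differed by -0.63 to -0.50 with 1 library left out. Its difference of -0.57 had adjusted p = 0.0997 in the fit of 6 libraries, and with the clock score it was -0.48 (adjusted p = 0.098). The causes of these shifts were not tested.

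Jnk2 against control on high fat gave 2824 calls with array weights and 126 in a fit of its 6 libraries. Jnk1Jnk2 against Jnk1 gave 231 on chow with no filter and 225 with the GC trend removed (119 higher, 106 lower, against 63 and 309), and 3896 on high fat with a mean of at least 5 FPKM. The difference between diets gave 2375 calls with array weights and 661 with the GC trend removed. The difference with and without JNK1 gave 104 with no filter, 423 with array weights and 253 with the GC trend removed. Jnk2 against Jnk1 gave 44 with quantile normalization and 38 with array weights. Near Mapk9, 1 locus was called within 5 Mb.

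The replicate numbers do not pair the samples: same-numbered Jnk2 and control libraries had correlations of deviations of -0.153, -0.077 and -0.26. With the replicate block 20 loci were called (5 higher, 15 lower). The uncalled values of Mapk8 and Fgf21 changed sign. Mapk8 was -0.0158 with array weights, -0.0096 and -0.0414 without control replicates 1 and 3 (0.0745 without control replicate 2), -0.004 with the clock score and -0.0016 with the GC trend removed, with or without the block. Fgf21 was 0.25 with the clock score.

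The files give no read counts, so what depth limits was not measured.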
